A study of Mus musculus with 8 samples.

Results

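The CCR4-NOT complex removes the poly(A) tails of mRNAs, and 10 genes that encode its subunits are described here: *Cnot1*, *Cnot2*, *Cnot3*, *Cnot4*, *Cnot6*, *Cnot6l*, *Cnot7*, *Cnot8*, *Cnot10* and *Cnot11*. They were chosen from the 54532 genes counted by gene symbol rather than by their values, although earlier results of these data were known. Each symbol matched 1 gene. All 10 were among the 17998 genes that passed the filter on low counts, with 551 to 8782 reads per gene and sample. *Cnot9*, a further core subunit, is given with the other genes of the pathway.

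RNA of whole mouse retina was compared by bulk RNA-seq between 4 control and 4 *Mettl3*-CKO samples. In *Mettl3*-CKO mice, *Six3-Cre* removes both floxed alleles of *Mettl3*, the catalytic subunit of the m6A writer, from retinal progenitor cells. *Six3-Cre* acts in the developing eye field and mainly in the central retina, so cells that kept *Mettl3* can be part of a *Mettl3*-CKO sample. The labels name the other group only as control, with no alleles, and whether these samples were littermates of the *Mettl3*-CKO pups was not stated for this experiment. The labels put all samples at postnatal day 7, whereas the methods text names day 6. The methods text speaks of biological replicates for the experiments that were tested, but the labels do not tie these samples to separate animals, so the p-values measure the spread between these samples, which may be in part technical. In bulk tissue, fewer cells of a type and less RNA per cell cannot be told apart.

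Shortening of the poly(A) tail is usually the first and slowest step in the decay of a cytoplasmic mRNA, and it precedes removal of the cap and digestion of the body of the message. CNOT1 is the large scaffold of the complex, on which the nucleases and the regulatory modules are mounted. The complex is brought to its targets by adaptors, among them the m6A reader YTHDF2, which binds CNOT1, and the TNRC6 proteins of the microRNA pathway. The data therefore address whether the transcripts of the deadenylase machinery itself differ when the writer of the mark is deleted.

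Each of the 2 nuclease places in the complex can be filled by either of 2 paralogous proteins, and reads can be told apart only where the paralogous transcripts differ in sequence. The stretches of 90 bases in which the coding sequences of each pair were most alike are shown for that reason. They were read from the principal transcripts of GENCODE vM21 (GRCm38), 5′ to 3′ on the strand of the gene, and capitals mark the bases that differ within the pair. In *Cnot6* and *Cnot6l* the stretch covers bases 799 to 888 of the coding sequence and runs from exon 8 into exon 9 of 12, that is, chr11:49682039-49682097 and chr11:49681265-49681295 for *Cnot6* and chr5:96091584-96091642 and chr5:96086263-96086293 for *Cnot6l*, all on the minus strand.
Cnot6: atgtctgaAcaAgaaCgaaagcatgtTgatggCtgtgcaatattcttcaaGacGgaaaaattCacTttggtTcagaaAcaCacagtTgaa
Cnot6l: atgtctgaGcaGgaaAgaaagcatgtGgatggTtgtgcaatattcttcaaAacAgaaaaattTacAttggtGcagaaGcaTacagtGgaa
The pair differed at 13 of these 90 bases. Over all 1638 aligned bases the coding sequences of 1659 and 1653 bases were 74.7% identical, and the longest run of identical bases was 20.

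For *Cnot7* and *Cnot8* the stretch covers bases 402 to 491 of the coding sequence. In *Cnot7* it runs from exon 3 to exon 4 of 6, at chr8:40500752-40500823 and chr8:40499422-40499439 on the minus strand. In *Cnot8* it runs from exon 4 to exon 5 of 7, at chr11:58113142-58113213 and chr11:58113950-58113967 on the plus strand.
Cnot7: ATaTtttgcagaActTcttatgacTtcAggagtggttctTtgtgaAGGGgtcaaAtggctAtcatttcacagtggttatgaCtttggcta
Cnot8: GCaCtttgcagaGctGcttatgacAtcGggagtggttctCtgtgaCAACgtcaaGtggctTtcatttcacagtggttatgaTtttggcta
This pair differed at 15 of the 90 bases, and 74.1% of its 845 aligned coding bases were identical, again with a longest identical run of 20. In both pairs the stretch crosses an exon junction at the same place, after 59 bases in the first pair and after 72 bases in the second. No stretch of 50 bases of a principal transcript was shared between 2 subunits of the list, so the paralogues can be counted separately with reads of that length.

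Total counts ranged from 16227095 to 19310791 in the controls and from 17290701 to 20281517 in the *Mettl3*-CKO samples, so a floor of 3 counts equals 0.148 to 0.185 CPM, the count of a gene relative to all counts of its sample. The other CPM values are TMM-scaled, that is, adjusted for differences in composition, except where total counts are named. *Mettl3* itself was at 33.8, 32.5, 29.4 and 29.3 CPM in controls 1 to 4 and at 21.1, 29.6, 21.3 and 24.3 CPM in *Mettl3*-CKO samples 1 to 4, a log2 fold change of -0.38 with a standard error (SE) of 0.12 (adjusted p = 0.0602 by the quasi-likelihood test of edgeR, Benjamini-Hochberg adjusted over all tested genes, as for every adjusted p below). *Mettl3*-CKO sample 2 overlapped the controls, and the counts cover the whole gene, including exons outside a deleted segment. Retinal identity was checked by summed marker levels (CPM by total counts in this paragraph from here on): rod genes reached 3156 to 4724 CPM in controls and 1653 to 3069 CPM in *Mettl3*-CKO samples, with 6 of 10 lower, and Müller glial genes 1806 to 2150 and 1901 to 2016 CPM, with 1 of 7 higher and 1 lower. Genes of dividing cells summed to 1622 to 2135 CPM in controls and 2209 to 2951 CPM in *Mettl3*-CKO samples, with 4 of 13 higher. Among markers of other tissue, 4 of 8 lens genes were lower, at 7.54 to 3099 CPM in controls against 9.08 to 22.5 CPM. Control 4 gave the value of 3099 CPM and control 1 the next, 64.7 CPM. DESeq2 and limma voom with sample quality weights each called 0 of the lens genes, so the lens calls depended on the tool. Of the retinal pigment epithelium genes 4 of 7 were lower (91.7 to 124 CPM in controls, 61.0 to 83.1 CPM in *Mettl3*-CKO samples), of the blood vessel genes 7 of 11 were lower and 1 higher (554 to 665 and 551 to 654 CPM), of the erythrocyte genes 2 of 3 were lower (14.0 to 26.3 and 4.28 to 7.40 CPM), and of the 10 microglial genes none was called (60.8 to 181 and 105 to 149 CPM). These calls are those of edgeR. For the microglial genes DESeq2 also called 0, whereas limma voom with sample quality weights called 8 higher. Control 1 gave the microglial value of 181 CPM, and controls 2 to 4, at 60.8 to 94.3 CPM, lay below all *Mettl3*-CKO samples. No list held a gene at 0 in all samples, and the part of these cell types in the results below was not tested.

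Across the 10 subunits, no transcript differed between *Mettl3*-CKO and control retinas by the test across all genes. In edgeR's quasi-likelihood test, 0 of 10 had an adjusted p under 0.05 and 0 had an unadjusted p under 0.05. Of all tested genes 10.5% were called, 6.49% as higher and 4.05% as lower in *Mettl3*-CKO retinas. DESeq2 also called 0 of the 10, and limma voom with sample quality weights called 1, *Cnot3*, as lower. The adjusted p-values lay between 0.205 (*Cnot10*) and 0.822 (*Cnot8*). For no subunit were the 4 TMM-scaled CPM values of a group apart from the 4 of the other, which was the case for 17.4% of all tested genes. A list of 10 genes is too small to set 0 called or 0 apart clearly off from these shares.

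The estimated differences were small as well as uncalled. Log2 fold changes of the subunits ranged from -0.23 to 0.09 with a median of -0.08, beside a median of -0.01 over all tested genes. The median absolute log2 fold change of all tested genes was 0.18, and 5% of them lay below -0.58 and 5% above 0.61. Values were below 0 for 7 subunits and above 0 for 3. The 95% intervals of all 10 differences lay inside a 1.5-fold change in either direction (log2 of 0.58), with *Cnot3* at the edge (lower bound -0.58) and the highest upper bound at 0.29 (*Cnot4*).

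**Figure D1:**
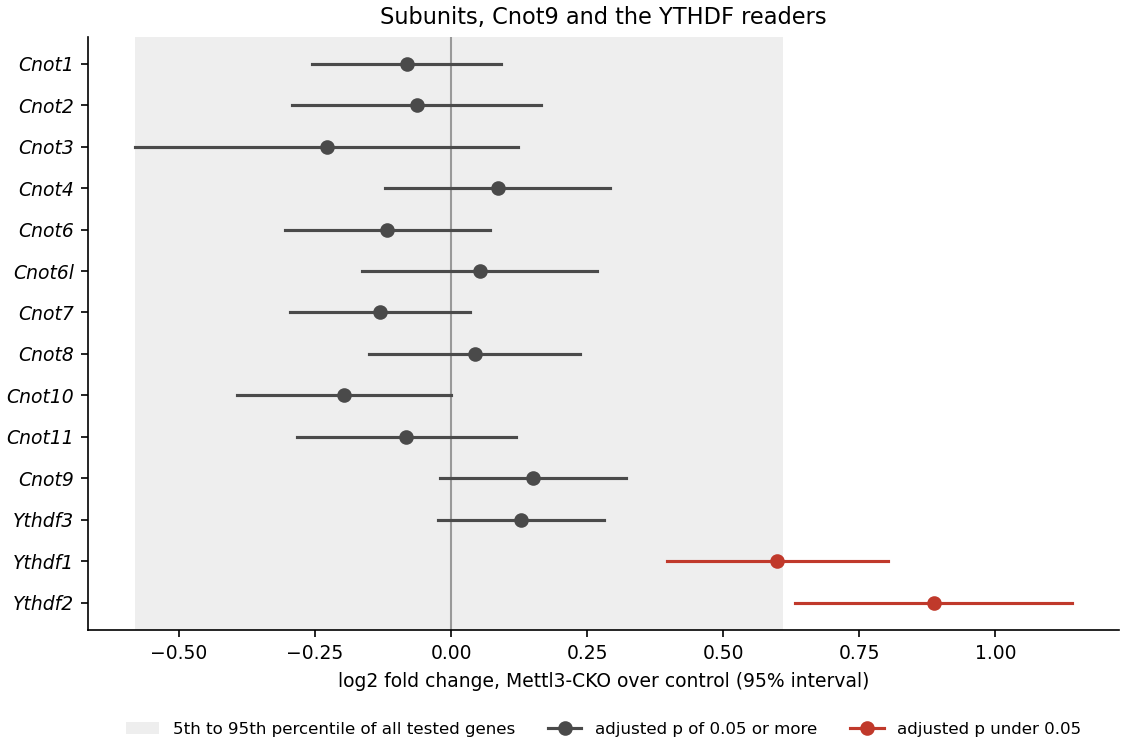
Log2 fold change (x axis, *Mettl3*-CKO over control) with its 95% interval for the 10 subunits, *Cnot9* and the 3 YTHDF readers; the shaded band spans the 5th to 95th percentile of all tested genes, and red marks an adjusted p under 0.05. All 10 subunits sit between -0.23 and 0.09 with intervals that, except at the lower end of *Cnot3*, stay well inside the band, whereas *Ythdf1* and *Ythdf2* lie at 0.60 and 0.89.

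Compared per gene length, the subunits spanned more than an order of magnitude in level. FPKM (fragments per kilobase of gene, scaled to the library total) was calculated from the counts, the deposited gene lengths and the total counts. *Cnot6*, a catalytic subunit, was the highest in controls at 66.5 ± 5.94 FPKM (SD, n = 4). By means over all 8 samples it was above 96.7% of all tested genes. In controls *Cnot6* was followed by *Cnot8* (35.0 FPKM), *Cnot2* (33.0), *Cnot7* (25.7), *Cnot1* (25.1), *Cnot10* (16.8), *Cnot11* (14.5), *Cnot3* (8.30) and *Cnot6l* (8.26). *Cnot4* came last at 3.75 ± 0.280 FPKM. By means over all 8 samples it was below the median of tested genes of 5.20 FPKM. Neighbours whose control values overlapped, and whose order is therefore not resolved, were *Cnot8* and *Cnot2*, *Cnot7* and *Cnot1*, *Cnot10* and *Cnot11*, and *Cnot3* and *Cnot6l*.

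The order rests on the length that a gene is given. The deposited lengths count every annotated exon, and for *Cnot1* this is 17169 bases against 8364 bases for its principal transcript. With principal transcript lengths the order in controls became *Cnot6*, *Cnot1*, *Cnot7*, *Cnot2*, *Cnot8*, *Cnot10*, *Cnot3*, *Cnot11*, *Cnot4* and *Cnot6l*. *Cnot6* was the highest on both scales, while the scaffold moved from the fifth place to the second. Summed over the 10 genes, the level was 236.9 ± 3.52 FPKM in controls (231.7 to 239.4 FPKM) and 225.7 ± 5.59 FPKM in *Mettl3*-CKO samples (217.6 to 230.1 FPKM; SD, n = 4 each). With TMM scaling the ranges were 231.8 to 245.9 and 215.7 to 230.3 FPKM. With principal transcript lengths they were 455 to 477 and 420.1 to 452 FPKM. The *Mettl3*-CKO sums lay below all control sums on each of these scales, and the sum was not tested.

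**Figure D2:**
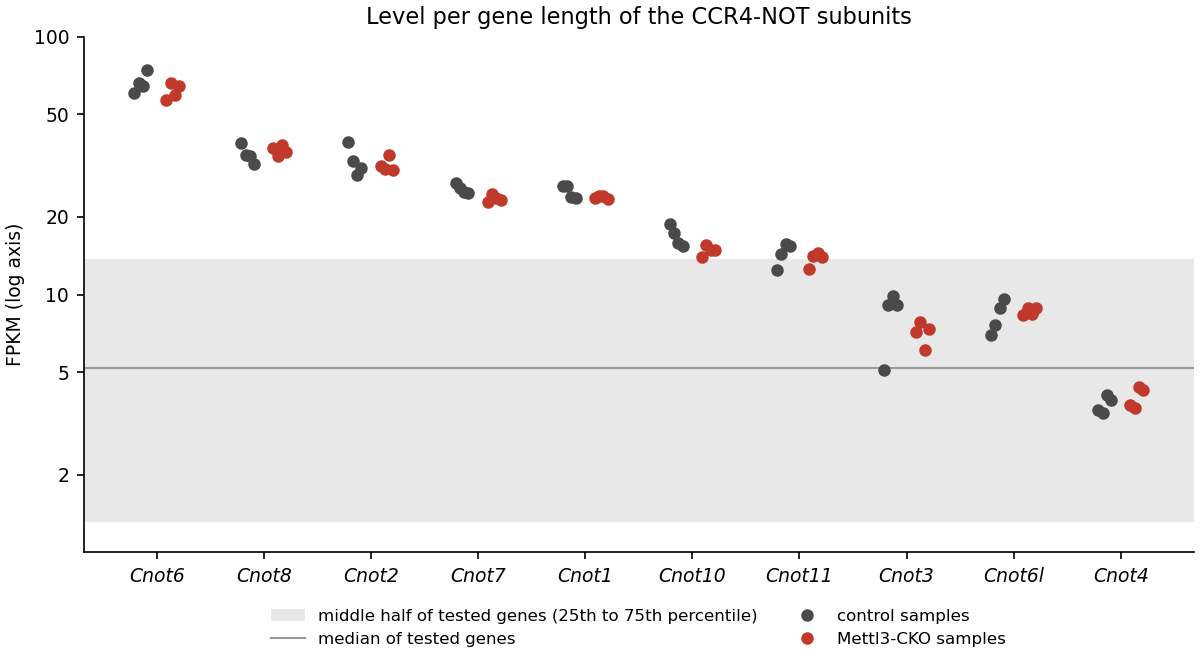
FPKM on a log axis for each subunit, ordered by its mean in controls, with 1 point per sample (dark for control, red for *Mettl3*-CKO). The shaded band is the 25th to 75th percentile of tested genes, by means over all 8 samples, and the line their median of 5.20 FPKM. *Cnot6* stands above the others near 66.5 FPKM, *Cnot4* lies under the median, and the points of the groups overlap in every subunit except *Cnot7*, where the *Mettl3*-CKO samples (22.9 to 24.6 FPKM) lie just below the controls (24.8 to 27.0 FPKM).

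The scaffold gene *Cnot1* (ENSMUSG00000036550, chromosome 8 from 95719451 to 95807464, minus strand, GRCm38) was among the steadiest of the list. It was at 469.9, 448.5, 410.5 and 403.7 CPM in controls 1 to 4 and at 404.7, 414.5, 419.3 and 398.9 CPM in *Mettl3*-CKO samples 1 to 4. The *Mettl3*-CKO values lay within or just below the lower part of the control range, with a coefficient of variation of 2.26%, the smallest of any subunit in either group. The log2 fold change was -0.08 (SE 0.08, interval -0.25 to 0.09, adjusted p = 0.586). Its exons overlap the antisense gene *4930513N10Rik*, at 2.90 CPM in controls, and 9.07% of the 50-base stretches of its principal transcript also occur in the processed pseudogene *Gm6158*, at no more than 0.694 CPM by total counts. These are small beside the level of *Cnot1*.

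*Cnot2* and *Cnot3* encode the pair of proteins that form the NOT module at the carboxy-terminal end of the scaffold. *Cnot2* (ENSMUSG00000020166, chromosome 10 from 116485161 to 116581511, minus strand) was at 163.9, 134.0, 118.5 and 125.0 CPM in controls and at 127.1, 125.0, 143.2 and 123.0 CPM in *Mettl3*-CKO samples, a log2 fold change of -0.06 (SE 0.11, adjusted p = 0.771). Control 1 was its highest sample, and without it the log2 fold change was 0.04. The direction for *Cnot2* is thus not fixed by these data. It overlaps exons of *5330438D12Rik* on the other strand, at 13.8 CPM in controls.

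*Cnot3* (ENSMUSG00000035632, chromosome 7 from 3645268 to 3661109, plus strand) had the largest estimated difference and the widest spread. It was at 37.7, 64.6, 70.8 and 64.3 CPM in controls and at 50.5, 56.0, 43.8 and 52.1 CPM in *Mettl3*-CKO samples. Control 1 was the lowest of all 8 samples, and the other 3 controls all lay above all 4 *Mettl3*-CKO samples. The coefficient of variation was 24.9% in controls, the largest of any subunit, against 10.04% in *Mettl3*-CKO samples. With all 8 samples the means were 59.3 ± 14.7 and 50.6 ± 5.08 CPM (SD, n = 4), and the log2 fold change was -0.23 (SE 0.16, interval -0.58 to 0.12, adjusted p = 0.431).

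The call for *Cnot3* turned on control 1. Without that sample the log2 fold change was -0.39 with an adjusted p of 0.00957 in edgeR's quasi-likelihood test, a fit in which 7.07% of all tested genes were lower. Without both control 1 and control 4, the samples with the highest lens levels, it was -0.42 (adjusted p = 0.0242), where 3.63% of genes were lower. With all samples but with limma voom's sample quality weights it was -0.39 (adjusted p = 0.0166), where 8.71% were lower. In the other 13 of 16 alternative settings *Cnot3* was not called, and its log2 fold change stayed below 0 in all 16. *Cnot3* was therefore called in 3 settings, which left out control 1 or weighted the samples.

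Of the subunits, *Cnot3* had the largest share of 50-base stretches found in another gene. In its principal transcript 21.6% of these stretches also occur in the processed pseudogene *Gm9207*. That pseudogene was at no more than 0.262 CPM by total counts in any sample, and reads that match both places may be lost in counting. By the methods text the reads were longer and paired, so fewer of them can match both places. The loss was not measured. The exons of *Leng1* overlap *Cnot3* on the other strand, and *Leng1* was at 10.3 to 12.01 CPM with a log2 fold change of -0.08 (adjusted p = 0.73). The strand setting of the counting was not given in the sources used here. *Mir3572*, which lies within *Cnot3*, had 0 counts.

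**Figure D3:**
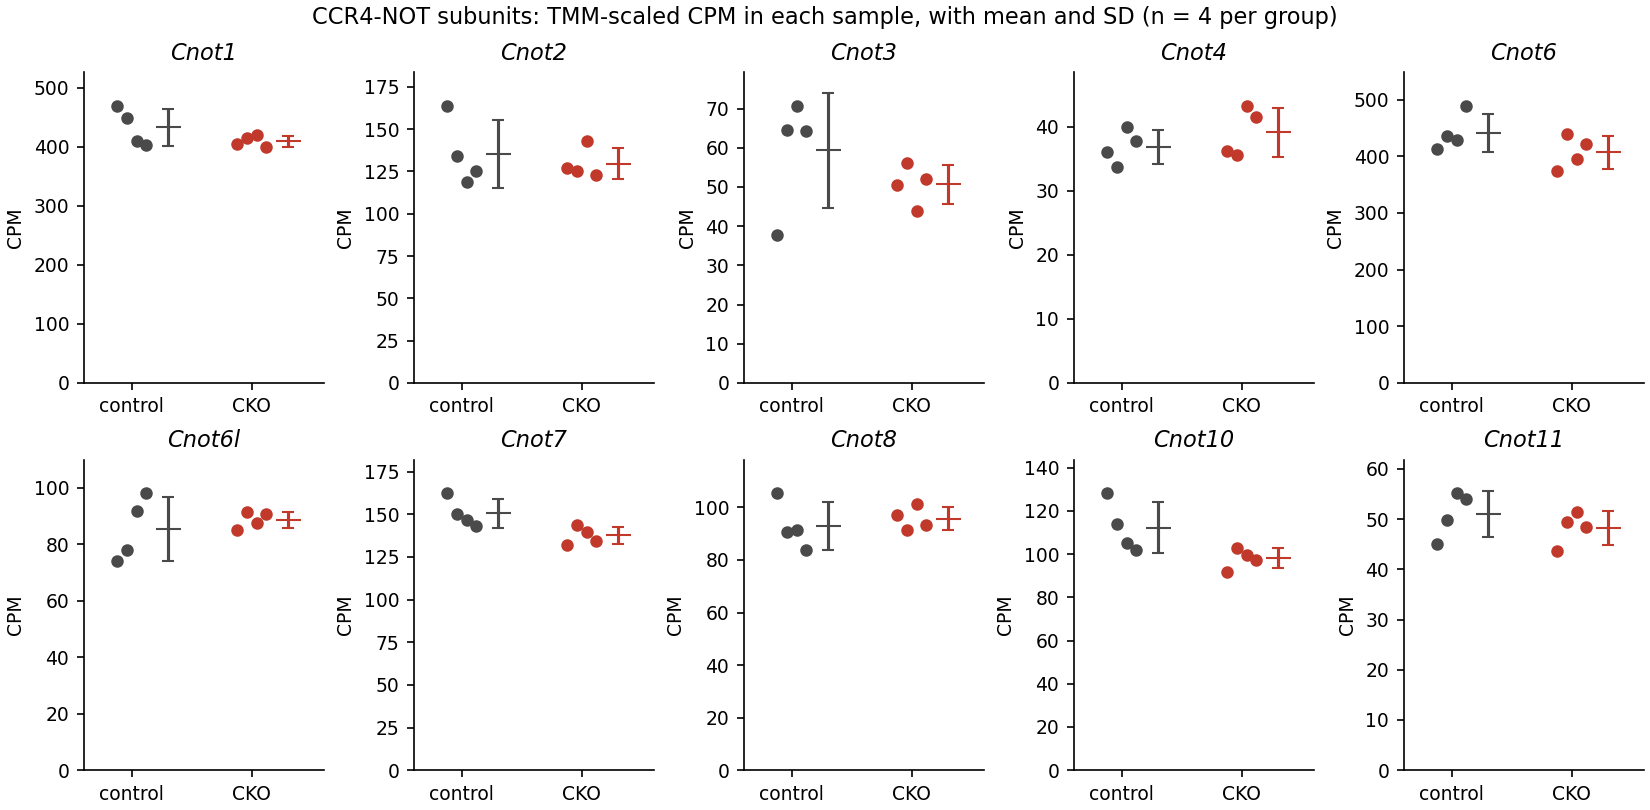
TMM-scaled CPM (y axes, each from 0) of each subunit in the 4 control (dark) and 4 *Mettl3*-CKO samples (red), with the mean and SD of each group beside the points. The groups overlap in all 10 panels, and control 1, the leftmost dark point, is the lowest *Cnot3* value at 37.7 CPM while the other controls lie at 64.3 to 70.8 CPM.

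The CCR4-type nucleases are encoded by *Cnot6* (ENSMUSG00000020362, chromosome 11 from 49671503 to 49712723, minus strand) and *Cnot6l* (ENSMUSG00000034724, chromosome 5 from 96070333 to 96164171, minus strand), whose coding sequences were compared above. *Cnot6* was at 412.0, 436.3, 428.6 and 489.5 CPM in controls and at 373.1, 439.2, 395.5 and 421.1 CPM in *Mettl3*-CKO samples, a log2 fold change of -0.12 (SE 0.09, interval -0.31 to 0.07, adjusted p = 0.458). *Cnot6l* was at 74.0, 77.9, 91.7 and 98.3 CPM in controls and at 85.2, 91.4, 87.4 and 90.6 CPM in *Mettl3*-CKO samples, with a log2 fold change of 0.05 (SE 0.10, adjusted p = 0.805). The *Mettl3*-CKO values of *Cnot6l* fell inside its control range, and its estimated direction turned without control 1 (-0.01).

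Because both proteins compete for the same place, the share of *Cnot6l* in the length-scaled sum of *Cnot6* and *Cnot6l* was taken as 1 value per sample. It was 10.3, 10.3, 12.1 and 11.4% in controls and 12.8, 11.8, 12.4 and 12.1% in *Mettl3*-CKO samples. The means were 11.02 ± 0.870% and 12.3 ± 0.420% (SD, n = 4), a difference of 1.25 percentage points (two-sided exact permutation test, p = 0.0571, where 0.0286 is the smallest p that 4 samples against 4 allow). *Mettl3*-CKO sample 2 and control 3 overlapped. *Cnot6* thus made up most of this pair in every sample, and the difference in share did not pass the test. With principal transcript lengths the difference was 0.65 percentage points, with the same exact p of 0.0571. Both lengths were applied to the same counts, so that p is not a separate check.

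The CAF1-type nucleases are encoded by *Cnot7* (ENSMUSG00000031601, chromosome 8 from 40492540 to 40515847, minus strand) and *Cnot8* (ENSMUSG00000020515, chromosome 11 from 58104153 to 58118594, plus strand). *Cnot7* was at 162.6, 150.3, 146.5 and 143.3 CPM in controls and at 132.3, 143.8, 139.7 and 134.6 CPM in *Mettl3*-CKO samples. Its means of 150.6 ± 8.46 and 137.6 ± 5.17 CPM (SD, n = 4) gave a log2 fold change of -0.13 (SE 0.08, interval -0.30 to 0.03, adjusted p = 0.324). Only *Mettl3*-CKO sample 2 reached into the control range, just above control 4. *Cnot8* was at 105.6, 90.7, 91.5 and 83.9 CPM in controls and at 97.1, 91.5, 101.4 and 93.1 CPM in *Mettl3*-CKO samples, a log2 fold change of 0.04 (SE 0.09, adjusted p = 0.822). The *Cnot8* values of the *Mettl3*-CKO samples lay within the spread of the controls.

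The share of *Cnot8* in the length-scaled sum of *Cnot7* and *Cnot8* was 58.9, 57.1, 58.0 and 56.4% in controls and 61.8, 58.4, 61.6 and 60.4% in *Mettl3*-CKO samples. The means were 57.6 ± 1.08% and 60.6 ± 1.56% (SD, n = 4), a difference of 2.96 percentage points (two-sided exact permutation test, p = 0.0571). As in the other pair, only *Mettl3*-CKO sample 2 overlapped a control, here control 1. With principal transcript lengths the share of *Cnot8* was 45.4 to 48.0% in controls and 47.5 to 51.1% in *Mettl3*-CKO samples, a difference of 3.06 percentage points with the same exact p of 0.0571, so which of the pair is the more abundant depends on the length used. The 2 shares were the paralogue comparisons made, and with Benjamini-Hochberg adjustment over both the exact p stays at 0.0571. *Mettl3*-CKO sample 2 was also the sample in which *Mettl3* overlapped the controls, and a link between these overlaps was not tested. *Cnot7* overlaps exons of *Zdhhc2* on the other strand, at 29.4 CPM in controls and with a log2 fold change of 0.0029. For *Cnot8*, 9.85% of the 50-base stretches also occur in *Gm18860*, at no more than 0.262 CPM by total counts.

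**Figure D4:**
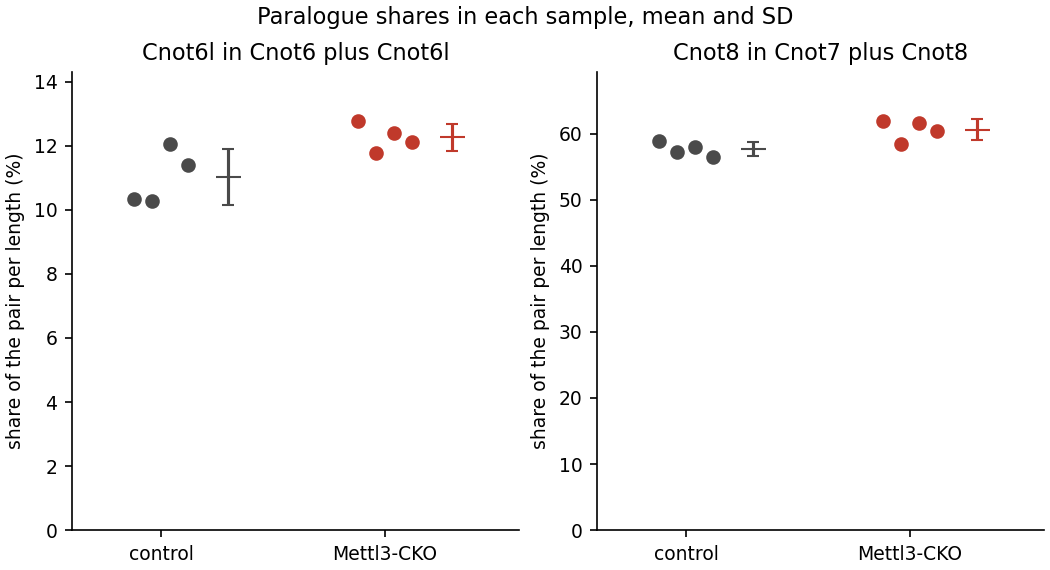
Share of the length-scaled sum (y axes in percent, from 0) taken by *Cnot6l* in its pair with *Cnot6* and by *Cnot8* in its pair with *Cnot7*, with 1 point per sample and the mean and SD of each group (n = 4). *Mettl3*-CKO means stand 1.25 and 2.96 percentage points above the control means, and in each panel 1 *Mettl3*-CKO sample lies within the control range.

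CNOT10 and CNOT11 bind each other and the amino-terminal end of the scaffold. *Cnot10* (ENSMUSG00000056167, chromosome 9 from 114585878 to 114640184, minus strand) had the lowest p-value of the list. It was at 128.4, 113.8, 105.1 and 101.8 CPM in controls and at 91.9, 102.9, 99.7 and 97.4 CPM in *Mettl3*-CKO samples. Only *Mettl3*-CKO sample 2 exceeded the lowest control. The means of 112.3 ± 11.9 and 98.0 ± 4.64 CPM (SD, n = 4) gave a log2 fold change of -0.20 (SE 0.09, interval -0.39 to 0.00079) with an unadjusted p of 0.0508 and an adjusted p of 0.205. Over 16 alternative settings its log2 fold change lay between -0.24 and -0.12 and the adjusted p between 0.145 and 0.438, so *Cnot10* was lower in each setting and called in none.

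*Cnot11* (ENSMUSG00000003135, chromosome 1 from 39534992 to 39546889, plus strand) ranged from 45.1 to 55.2 CPM in controls and from 43.6 to 51.4 CPM in *Mettl3*-CKO samples, a log2 fold change of -0.08 (SE 0.09, adjusted p = 0.643). *Cnot4* (ENSMUSG00000038784, chromosome 6 from 35022065 to 35133724, minus strand) encodes a RING-type E3 ubiquitin ligase that is only loosely attached to the mammalian complex. It ranged from 33.7 to 40.0 CPM in controls and from 35.5 to 43.3 CPM in *Mettl3*-CKO samples, and its log2 fold change of 0.09 was the highest of the list (SE 0.10, adjusted p = 0.64). Neither gene shared a 50-base stretch of its principal transcript with another gene or overlapped exons of one, and the groups overlapped for both.

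Control 1 was often an extreme of the controls, in the list as over all tested genes, and not for *Cnot3* alone. It was the highest or the lowest of the 4 controls for 9 of the 10 subunits, and the highest or lowest of all 8 samples for 7. Over all tested genes it was an extreme of the controls for 75.9% and an extreme of all 8 samples for 50.1%. It held the highest level of *Cnot1*, *Cnot2*, *Cnot7*, *Cnot8* and *Cnot10* and the lowest of *Cnot3* and *Cnot6l* among all samples. Without control 1 the log2 fold changes of the 10 subunits ranged from -0.39 (*Cnot3*) to 0.11 (*Cnot8*), and those of *Cnot2* and *Cnot6l* changed sign.

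METTL3 methylates adenosines within a short sequence context, of which GGACT is the most favoured form, and such sites gather near stop codons. The letters GGACT were therefore counted on the transcript strand of principal transcripts, in a window of 400 bases centred on the end of the stop codon. They occurred in 3 of the 10 windows of the subunits and in 38.8% of 17220 windows of protein-coding genes. Over whole transcripts the median was 0.788 per kilobase for the subunits and 1.02 for 21619 protein-coding genes. *Cnot1* held 11 copies, none of them in its window, and *Cnot3* held 0. The 3 occurrences near stop codons are shown with their flanks because they are the only places in the windows of this list that carry the letters, in capitals. The 2 in *Ythdf2* are added because its level is set beside that of *Cnot1* further on, a comparison that does not use the letters. No other gene outside the list is shown, and a link between the letters and the level of *Ythdf2* was not tested.
Cnot4: aatttcttGGACTtgaatctc
Cnot8: gaggatgtGGACTgtgcccag
Cnot11: aacgtgcaGGACTtgtttata
Ythdf2, first: gaaaattaGGACTttttttct
Ythdf2, second: aagacataGGACTtaactgga
The *Cnot4* stretch lies at chr6:35051105-35051125 (exon 10 of 11, minus strand), the *Cnot8* stretch at chr11:58117523-58117543 (exon 7 of 7, plus strand) and the *Cnot11* stretch at chr1:39545129-39545149 (exon 8 of 8, plus strand), each within the coding sequence. Those of *Ythdf2* lie in its 3′ UTR, at chr4:132186834-132186854 and chr4:132186753-132186773 (exon 5 of 5, minus strand). The positions are those of GRCm38. A match describes the letters in the window and is not a measured m6A site.

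The pathway around the complex was read from 7 lists of genes, 81 of which were tested. Of these, 5 were higher and 2 were lower in *Mettl3*-CKO retinas, together 8.64%, beside 10.5% of all tested genes. The share of called genes was thus close to the background. The lists leave out the 10 subunits, so they do not compare the complex with its surroundings. Of the 2 other subunits tested, neither was called: *Cnot9*, which binds TNRC6 proteins, was at 66.5 to 75.7 CPM in controls and at 75.9 to 79.7 CPM in *Mettl3*-CKO samples, a log2 fold change of 0.15 (adjusted p = 0.264), and *Tnks1bp1* had a log2 fold change of 0.28 (adjusted p = 0.113). The values of *Cnot9* did not overlap between groups although its test across genes was not passed. Of all tested genes, 17.4% did not overlap between groups.

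Among 7 genes listed as deadenylases outside CCR4-NOT, 3 were higher and none was lower, with a list median of -0.04. The list was made by gene symbol, and whether each member shortens mRNA tails was not tested. *Pde12*, which encodes a mitochondrial poly(A) nuclease, was at 36.9 to 44.9 CPM in controls and at 61.3 to 76.1 CPM in *Mettl3*-CKO samples, a log2 fold change of 0.72 (SE 0.10, adjusted p = 0.000983). *Angel2*, of the same protein family as the CCR4-type nucleases, was at 87.4 to 111.0 CPM and at 123.6 to 142.0 CPM, a log2 fold change of 0.51 (adjusted p = 0.00691). *Noct*, which encodes the related protein nocturnin, was at 14.1 to 15.1 and at 18.7 to 19.8 CPM, a log2 fold change of 0.39 (adjusted p = 0.0222). The groups did not overlap for any of these 3 genes, and they were called in 16, 16 and 10 of the 16 alternative settings, respectively. *Pan2* and *Pan3*, which encode the nuclease that trims long tails before CCR4-NOT acts, had log2 fold changes of -0.28 (adjusted p = 0.126) and -0.04 (adjusted p = 0.838), and *Parn* of -0.15 (adjusted p = 0.458). *Pan2* was called lower in 3 of the 16 settings, with an adjusted p of 0.00665 without control 1.

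Adaptors that bring CCR4-NOT to its targets numbered 23, of which 2 were higher and none was lower, with a median log2 fold change of -0.0014. Both that were called are m6A readers. *Ythdf2* was at 83.9, 64.5, 74.3 and 65.4 CPM in controls and at 159.7, 117.8, 133.5 and 122.0 CPM in *Mettl3*-CKO samples, a log2 fold change of 0.89 (SE 0.12, adjusted p = 0.000929). *Ythdf1* was at 80.9 to 93.8 and at 115.2 to 148.7 CPM, a log2 fold change of 0.60 (adjusted p = 0.00235). *Ythdf3* had a log2 fold change of 0.13 (adjusted p = 0.285). Its groups did not overlap either, at 161.2 to 173.9 CPM in controls and 180.7 to 187.5 CPM in *Mettl3*-CKO samples. *Ythdf1* and *Ythdf2* were called in all 16 alternative settings.

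Since YTHDF2 docks on CNOT1, the level of *Ythdf2* was set beside that of the scaffold in each sample, a comparison chosen after their values had been seen. Per gene length, the ratio of *Ythdf2* to *Cnot1* was 0.67, 0.54, 0.68 and 0.61 in controls and 1.48, 1.07, 1.20 and 1.15 in *Mettl3*-CKO samples. The means were 0.62 ± 0.06 and 1.22 ± 0.18 (SD, n = 4). The ratios of the *Mettl3*-CKO samples lay above those of all controls. With principal transcript lengths the ratio was 0.29 to 0.37 in controls and 0.58 to 0.80 in *Mettl3*-CKO samples. Whether *Ythdf2* stands above or below *Cnot1* thus depends on the length used. A change of length multiplies every ratio by the same factor, so it cannot alter the order of the groups. The ratio was not tested.

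For the microRNA adaptors, the log2 fold changes were 0.26 for *Tnrc6a* (adjusted p = 0.077), 0.20 for *Tnrc6b* (adjusted p = 0.53) and 0.42 for *Tnrc6c* (adjusted p = 0.106). *Tnrc6a* did not overlap between groups, as held for 17.4% of all tested genes (200.9 to 251.1 CPM in controls, 270.0 to 276.0 CPM in *Mettl3*-CKO samples). For the AU-rich element binding proteins *Zfp36l1* and *Zfp36l2* they were 0.19 (adjusted p = 0.562) and 0.11 (adjusted p = 0.679), and for the Pumilio gene *Pum2* the value was -0.0014 (adjusted p = 0.994). None of these 6 was called by edgeR. *Tnrc6a* was called higher by DESeq2 (adjusted p = 0.0414) and by limma voom (adjusted p = 0.0371), 2 of the 16 alternative settings, and *Tnrc6c* in 1, with no filter on low counts (adjusted p = 0.0122). Of the 5 tested BTG/TOB genes, whose proteins bind the CAF1-type nucleases, 0 were called by edgeR, with 2 at an unadjusted p under 0.05, 2 were lower with DESeq2 and 1 with limma voom. *Btg2* was at 251.8 to 298.2 CPM in controls and at 205.3 to 260.0 CPM in *Mettl3*-CKO samples, a log2 fold change of -0.29 (adjusted p = 0.0805), and *Tob2* had -0.33 (adjusted p = 0.0856), *Btg1* 0.04 (adjusted p = 0.835) and *Tob1* -0.02 (adjusted p = 0.948). *Tob2* was called lower in 5 of the 16 settings and *Btg2* in 1, DESeq2 (adjusted p = 0.0392).

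Poly(A)-binding proteins cover the tail that CCR4-NOT removes, and 0 of 10 tested genes were called by edgeR, DESeq2 or limma voom, with 0 at an unadjusted p under 0.05 in edgeR. Their log2 fold changes lay between -0.10 and 0.06, with -0.02 for *Pabpc1*, the main cytoplasmic form (adjusted p = 0.945). In the decapping and 5′-to-3′ decay list 1 of 19 genes was lower and none higher, with a median of 0.0064. This was *Edc4*, the scaffold of the decapping complex, at 146.3 to 154.3 CPM in controls and 122.9 to 127.9 CPM in *Mettl3*-CKO samples, a log2 fold change of -0.24 (adjusted p = 0.0456). *Ddx6*, the helicase that binds CNOT1, had a log2 fold change of 0.0039 (adjusted p = 0.982), the decapping enzyme gene *Dcp2* 0.21 (adjusted p = 0.178) and the exonuclease gene *Xrn1* 0.0064 (adjusted p = 0.970). In the exosome list 1 of 15 genes was lower, *Skiv2l*, the helicase of the Ski complex, at 110.4 to 122.3 and 89.6 to 100.9 CPM with a log2 fold change of -0.30 (adjusted p = 0.0356), and the median of the list was 0.08. *Edc4* was called in 6 and *Skiv2l* in 8 of the 16 alternative settings, so both calls depended on the setting. *Btg4*, *Zfp36l3*, *Pabpc2* and *Pabpc6* were not tested, with at most 5 counts in a sample, and *Exosc6* was listed at 0 in all samples.

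**Figure D5:**
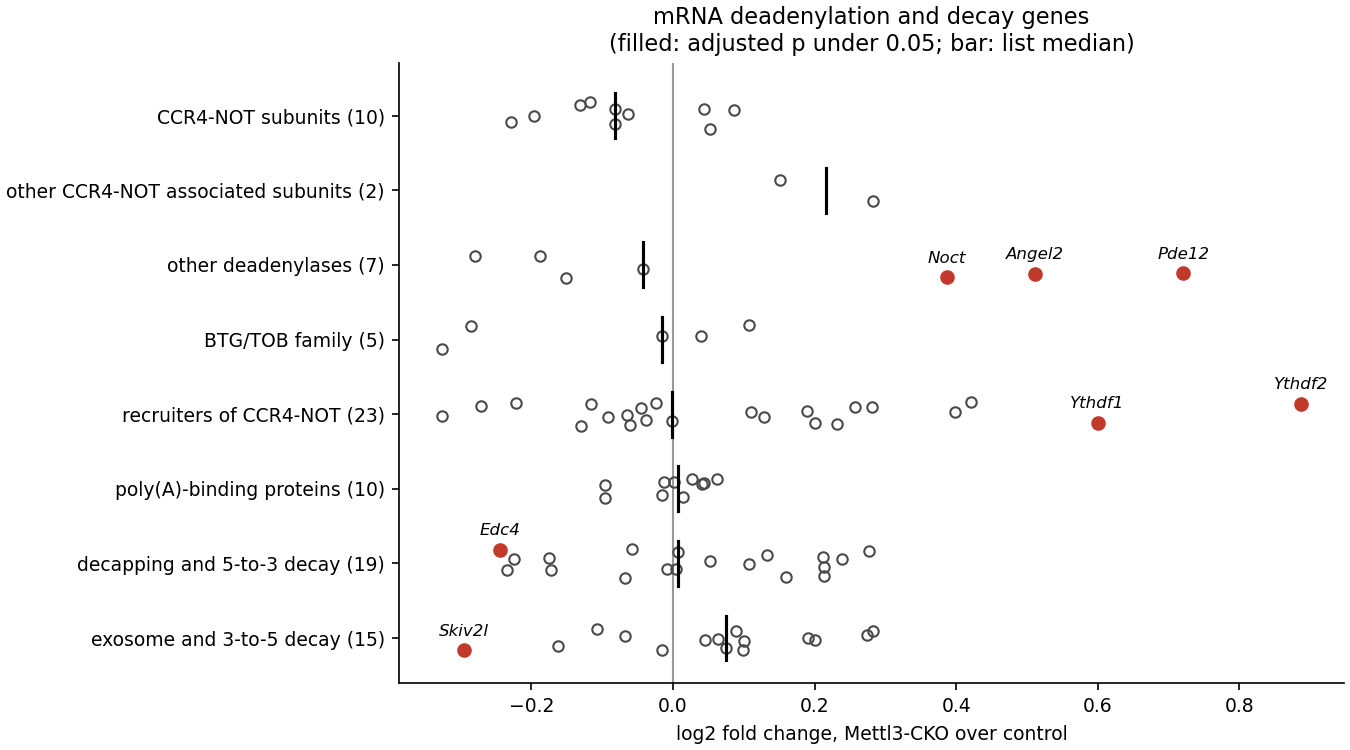
Log2 fold change (x axis, *Mettl3*-CKO over control) of the 10 CCR4-NOT subunits and of the 81 tested genes in the 7 lists of the pathway, 1 row of points per list with the number of tested genes in brackets; filled red points have an adjusted p under 0.05 and are named, and the vertical bars are list medians. The subunits lie between -0.23 and 0.09 with no filled point. The filled points are 3 genes listed as other deadenylases, 2 adaptors, *Edc4* and *Skiv2l*.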

How the data were processed

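Bulk RNA-seq of 4 control and 4 *Mettl3*-CKO retinal samples was used. HISAT2 (alignment to GRCm38) and featureCounts (counting by gene) were the tools the authors named for making the table. What was deposited are raw read counts per gene, as the whole numbers and unequal totals show. The annotation release and strand setting were not given in the sources used here. Every column was matched to a sample by its label.

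The fit of the deposited counts used edgeR 4.0.16 under R 4.3.3 (filterByExpr, TMM, quasi-likelihood test), with Benjamini-Hochberg adjustment over all 17998 tested genes and a threshold of 0.05. The standard error is the absolute log2 fold change divided by the square root of F. A paralogue share is 1 value per sample and was compared by a two-sided exact permutation test (SciPy 1.17.1). At 16227095 to 20281517 counts per sample, counting error is small for the subunits, and the floor of 3 counts covers counting error only. The fits were tested on simulated data.

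Alternatives were DESeq2 1.42.0, limma 3.58.1 (voom with sample quality weights), RLE size factors, total counts only, no filter on low counts, at least 1 CPM in 4 samples, an adjusted p under 0.01, the replicate number as a block and each sample left out. Principal transcript lengths and the fit without both control 1 and control 4 were added after the data had been seen. Transcripts, positions and overlaps come from GENCODE vM21, in which all 10 subunits have the same identifier and coordinates.

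The members, lists and tests were chosen with earlier results of these data known. Named are the 10 subunits, *Mettl3*, called genes of each pathway list (at most 4 in each direction) and further pathway genes listed by symbol, of which 1 is not reported here. *Tnks1bp1* and the genes that share sequence or exons with a subunit were added after their values had been seen.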

Additional observations from a re-analysis of the deposited data

Results flagged for a closer look

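In 38 groups of 4 samples, those of the subunits, of the 2 paralogue shares and of the called genes of the pathway lists, the highest or lowest sample was compared with the rest by Dixon's test. Chance marks about 1 in 20 groups, here 1.9, and 3 were marked. In *Cnot3* control 1 was at 5.24 on the log2 CPM scale, with the other controls at 6.01 to 6.15. In *Angel2* control 1 was at 6.80, with the others at 6.45 to 6.46. In *Edc4* control 3 was at 7.27, with the others at 7.19 to 7.21.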

How the results depend on the processing

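The subunit counts of 0 higher and 0 lower held in all settings except 3: limma voom with sample quality weights, the fit without control 1 and the fit without both control 1 and control 4 each called 1 subunit lower, *Cnot3*. With 1 sample left out, 0 to 0 subunits were higher and 0 to 1 lower. The share differences were then 1.002 to 1.598 percentage points for *Cnot6l* and 2.54 to 3.68 for *Cnot8*, with exact permutation p of 0.0571 to 0.114. Since 0.0571 is the smallest p that 3 samples against 4 allow, these fits could not fall under 0.05. Over all tested genes, 1168 were higher and 729 lower. With voom the numbers were 2142 and 1568, at an adjusted p under 0.01 they were 439 and 147, and leaving out 1 sample gave 509 to 1882 and 185 to 1289, the lowest without *Mettl3*-CKO 1 and the highest without control 1. Of the pathway genes, 5 were higher (10 with voom, 4 to 7 with 1 sample left out) and 2 lower (4 with DESeq2, 6 with voom, 0 with no filter on low counts, 0 at an adjusted p under 0.01, 0 to 4 with 1 sample left out). The causes were not tested.

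Among the subunits and the pathway genes recomputed in every setting, signs turned only in genes that were called in none of these fits, and the values that follow are log2 fold changes. *Cnot2* was at 0.031 with voom and 0.035 without both control 1 and control 4, and at -0.12 to 0.043 with 1 sample left out. With 1 sample left out, *Cnot6l* was at -0.010 to 0.13, *Cnot8* at -0.0032 to 0.11, *Pan3* at -0.10 to 0.016, *Btg1* at -0.014 to 0.072, *Tob1* at -0.067 to 0.037, *Pum2* at -0.053 to 0.047, *Pabpc1* at -0.076 to 0.037, *Ddx6* at -0.024 to 0.021 and *Xrn1* at -0.011 to 0.022. *Pum2* was at 0.0062 with voom, 0.0088 with total counts only and 0.0015 with no filter on low counts, *Zfp36l2* at -0.027 and *Xrn1* at -0.0050 with voom, *Zfp36l1* at -0.069 and *Xrn1* at -0.018 without both control 1 and control 4, and *Ddx6* at -0.00094 with DESeq2 and -0.00085 with RLE size factors.

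The labels number the samples of each group from 1 to 4. Same-numbered samples correlated between -0.11 and 0.25 in their deviations from the group means, and 4 of 8 samples correlated best with their own number, so the numbers were not taken as pairs. With the replicate block, 1198 genes were higher and 660 lower, 0 subunits were called, 6 pathway genes were higher and 2 lower, the log2 fold change of *Pum2* was 0.00044, and both share differences had an exact sign-flip p of 0.125, the smallest that 4 pairs allow.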
